A study of Homo sapiens with 4 samples.

Results

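The genes described here are the 35 that encode enzymes of nucleotide synthesis and of the serine and folate pathways that feed it. They were listed by symbol and matched to the Ensembl identifiers of the count table. All 35 were among the 58037 genes of the table, and all 35 passed the filter on low counts, which 15718 genes passed. RNA was sequenced from OCI-AML3, an established human AML (acute myeloid leukemia) line that carries a heterozygous NPM1 mutation, a heterozygous DNMT3A mutation and a homozygous NRAS mutation, so that both groups share the DNMT3A and NRAS alleles. One group of 2 libraries came from cells transfected with sgRNA Ctrl, a guide that the labels call sgNeg. The other group of 2 libraries came from cells transfected with sgNPM1A, a CRISPR-Cas9 guide directed at the mutant NPM1 (mtNPM1) allele. Both groups were harvested 3 days (72 hours) after transfection, and each library is the whole transfected population of a single line rather than an edited clone. The comparison asks how mtNPM1 KO (knockout) changes the mRNA of these cells.

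De novo purine synthesis builds IMP (inosine monophosphate) step by step on PRPP (phosphoribosyl pyrophosphate), and IMP is then converted to AMP or GMP. Pyrimidine synthesis builds UMP, from which CTP and, after reduction of the ribose and methylation of the base, dTTP are made. Serine and folate metabolism supply the one-carbon units for the purine ring and for dTMP, and antifolates, thiopurines and nucleoside analogs used in leukemia act on these enzymes or are activated by them.

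Most of the synthesis genes differed little between sgNPM1A and sgRNA Ctrl. SHMT1, the cytosolic serine hydroxymethyltransferase, and PHGDH, the first enzyme of serine synthesis, were lower with mtNPM1 KO, and PRPS2, a PRPP synthetase, was higher. The threshold for a call was an adjusted p under 0.05 in edgeR's quasi-likelihood F test (Benjamini-Hochberg) together with a log2 fold change of at least 0.32 in size, the fold limit of the study's methods. By this rule 1 of the 35 genes was higher and 2 were lower, together 8.57%, where 20.8% of all tested genes were called, 10.5% higher and 10.3% lower. The study, which used DESeq2 and further normalization, reported far fewer genes in each direction at this fold limit. SHMT1 kept its call whichever library was left out. PHGDH did not, with a log2 fold change of -0.17 without sgRNA Ctrl 2. Nor did PRPS2, at 0.28 without sgRNA Ctrl 1 and 0.28 without sgNPM1A 2, below the fold limit. The median log2 fold change of the 35 genes was -0.04, with a range from -0.46 to 0.35, and that of all tested genes was 0.00. On the same scale the median size of the change, without its sign, was 0.108 among the 35 genes and 0.217 among all tested genes. In these bulk cultures fewer cells of a kind and less RNA per cell cannot be told apart.

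Well expressed genes are measured more precisely than the average tested gene, so the same values were taken over genes whose mean reached 20 CPM (counts scaled to library size after TMM normalization), a limit chosen after the values were seen. Of the 35 genes, 34 reached it, and all but NME2 are thus included. Among these 34, 3 were called (8.82%), against 20.0% of the 7036 tested genes above the limit. The log2 fold change had a median size of 0.106 in the 34 genes and 0.150 in the 7036. The 95% interval of the fold change lay wholly within the fold limit either way for 21 of all 35 genes, where this held for 23.7% of all tested genes. Above 20 CPM it held for 21 of 34 members (61.8%) and for 47.4% of all genes. The plot of fold changes by role shows these intervals gene by gene.

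**Figure D1:**
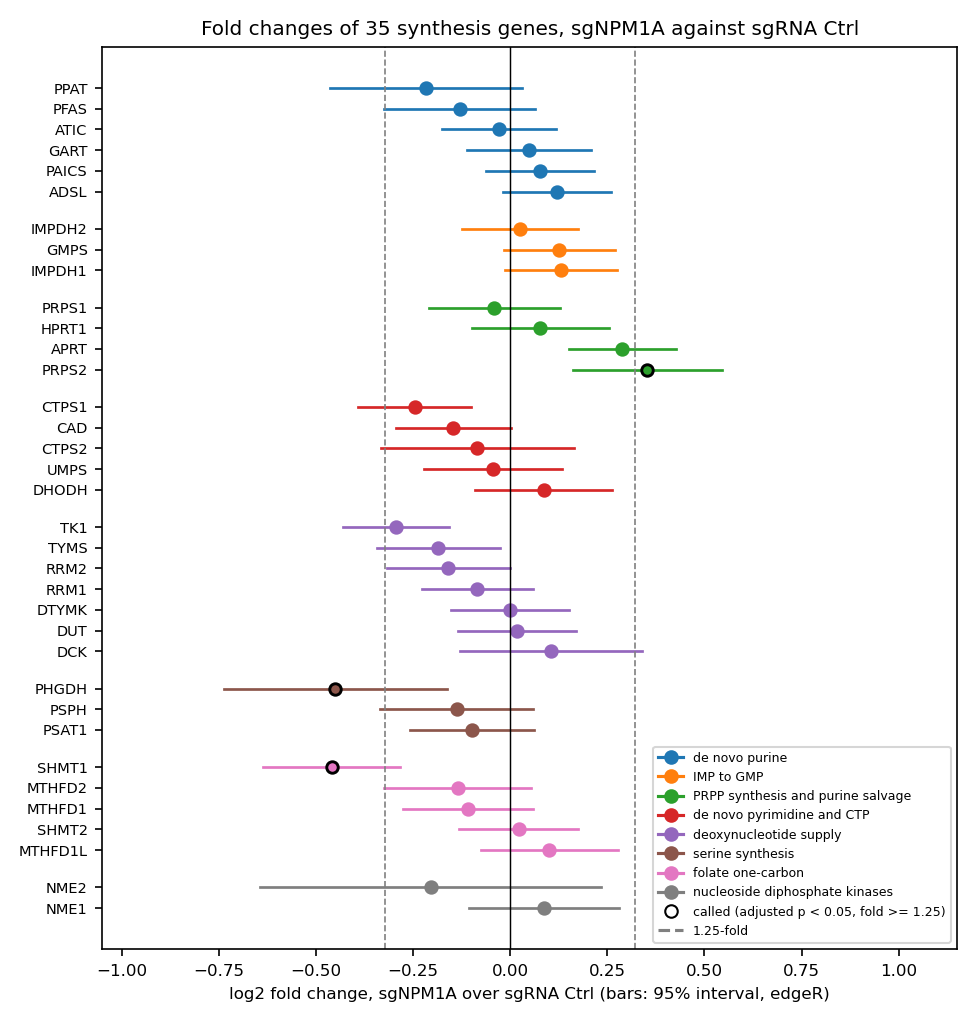
Fold changes (log2 scale, x axis) of the 35 synthesis genes (y axis, grouped and coloured by role), sgNPM1A over sgRNA Ctrl, with n = 2 libraries per group; points are edgeR estimates, bars are 95% intervals, dashed lines mark the fold limit and black rings mark called genes. SHMT1 and PHGDH lie to the left of the lower dashed line, PRPS2 lies to the right of the upper one, and the other 32 points lie between the lines.

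The libraries held between 25069484 and 28276391 counts, of which the 35 genes took between 0.468% and 0.490%. Single synthesis genes had from 80 counts (NME2) to 19472 counts (IMPDH2) in a library, and 3 counts correspond to between 0.108 and 0.118 CPM, a floor that covers counting error only. NPM1, the targeted gene, had 1319 and 1385 CPM with sgRNA Ctrl and 1189 and 1132 CPM with sgNPM1A. Its log2 fold change was -0.22 (SE 0.07, adjusted p = 0.0360), below the fold limit, and its counts include both alleles, mutant and wild-type. All 7 myeloid markers examined (PTPRC, CD33, SPI1, MPO, CSF3R, LYZ and CEBPA) were above 1 CPM in every library. The study calls the libraries biological replicates, and nothing in the labels says whether they came from separate cultures, so p-values measure the spread between these libraries, which may be technical. The smallest two-sided p of an exact permutation test of 2 against 2 libraries is 0.333, and the calls rest on the spread that edgeR shares between genes.

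Levels of different genes were compared as CPM per kilobase of the Ensembl canonical transcript. On this scale IMPDH2, which catalyses the first step from IMP to GMP, had the highest level of the 35 genes, with 407 ± 16.6 (SD, n = 2) with sgRNA Ctrl. APRT, which salvages adenine, followed with 248 ± 4.18, TK1, the cytosolic thymidine kinase, with 178 ± 0.103, and SHMT2, the mitochondrial serine hydroxymethyltransferase, with 142 ± 9.22. These 4 levels differed from one another by more than their SD. The lowest levels per kilobase were those of CTPS2, a CTP synthetase (5.26 ± 0.781), NME2, a nucleoside diphosphate kinase (5.29, from libraries at 4.21 and 3.09 CPM), and PPAT, the amidotransferase that commits PRPP to the purine ring (7.33 ± 0.987). The levels of CTPS2 and NME2 did not differ beyond their SD. Part of the NME2 transcript sequence is shared with other genes, mostly the NME1-NME2 readthrough gene, and how reads in that part were counted is not known. The level of NME2 and its place in this order are therefore uncertain, and these counts cannot tell whether NME2 mRNA is low. With sgNPM1A the same 4 genes were at the top of the order, with IMPDH2 at 415 ± 12.1, APRT at 303 ± 6.40, TK1 at 146 ± 0.663 and SHMT2 at 144 ± 4.07 CPM per kilobase, and TK1 and SHMT2 no longer differed beyond their SD.

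**Figure D2:**
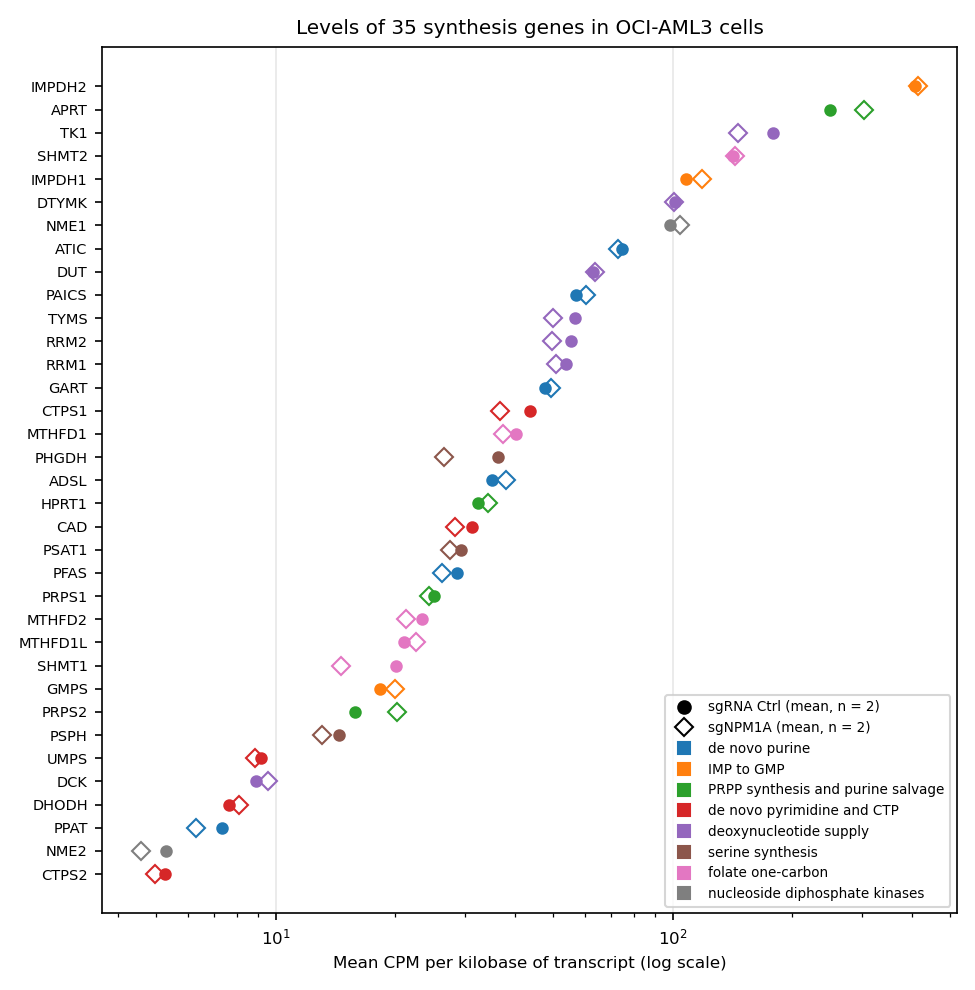
Mean CPM per kilobase of the canonical transcript (x axis, log scale) of the 35 synthesis genes (y axis, in the order of their sgRNA Ctrl level, coloured by role); filled circles are sgRNA Ctrl and open diamonds sgNPM1A, each a mean of n = 2 libraries. IMPDH2 is highest at 407 in sgRNA Ctrl, CTPS2 lowest at 5.26, and the symbols of the 2 groups overlap or lie close together for most genes.

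The promoters of the called genes and of PPAT are shown because the 3 called genes carry the differences described below and because PPAT shares its start region with PAICS, another gene of de novo purine synthesis. Each is 250 bases before to 50 bases after the annotated start, from RefSeq on GRCh38.p14, and 31 of the 35 genes had an entry in the table used. Capitals mark the motifs searched on both strands, which were the E-box CACGTG, known as a site of MYC and MAX, the E2F-like words TTTCCCGC and TTTGGCGC, the word TGATGNAA, which resembles sites of ATF4, and CCAAT. SHMT1 (ENSG00000176974), at chr17:18327873-18363550 on the minus strand, has CCAAT on each strand in the window chr17:18363501-18363800.
SHMT1: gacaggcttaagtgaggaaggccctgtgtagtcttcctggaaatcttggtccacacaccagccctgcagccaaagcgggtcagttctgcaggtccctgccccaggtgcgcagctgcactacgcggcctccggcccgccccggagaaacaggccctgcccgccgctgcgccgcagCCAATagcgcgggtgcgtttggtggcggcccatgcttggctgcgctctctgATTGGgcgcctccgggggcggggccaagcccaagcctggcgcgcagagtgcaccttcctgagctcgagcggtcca
PHGDH (ENSG00000092621), at chr1:119711934-119744215 on the plus strand, has a single CCAAT in the window chr1:119711684-119711983.
PHGDH: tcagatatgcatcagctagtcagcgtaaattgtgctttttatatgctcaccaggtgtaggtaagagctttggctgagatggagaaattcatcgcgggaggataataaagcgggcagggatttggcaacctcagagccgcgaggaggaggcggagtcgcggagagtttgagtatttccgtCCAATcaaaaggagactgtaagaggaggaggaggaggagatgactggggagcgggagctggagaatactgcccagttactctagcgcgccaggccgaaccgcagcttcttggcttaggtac
PRPS2 (ENSG00000101911), at chrX:12791412-12824222 on the plus strand, has TTTCCCGC near its start in the window chrX:12791162-12791461.
PRPS2: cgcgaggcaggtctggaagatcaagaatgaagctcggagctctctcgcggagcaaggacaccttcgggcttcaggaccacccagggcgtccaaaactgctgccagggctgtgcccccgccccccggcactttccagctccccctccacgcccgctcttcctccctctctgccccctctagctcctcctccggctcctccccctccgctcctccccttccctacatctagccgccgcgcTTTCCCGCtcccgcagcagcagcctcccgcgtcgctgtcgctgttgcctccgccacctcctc
PPAT, at chr4:56393362-56435615 on the minus strand, starts 137 bases from a start of PAICS, which runs the other way, and a single CACGTG lies in the windows of both genes, shown here in the PPAT window chr4:56435566-56435865, minus strand.
PPAT: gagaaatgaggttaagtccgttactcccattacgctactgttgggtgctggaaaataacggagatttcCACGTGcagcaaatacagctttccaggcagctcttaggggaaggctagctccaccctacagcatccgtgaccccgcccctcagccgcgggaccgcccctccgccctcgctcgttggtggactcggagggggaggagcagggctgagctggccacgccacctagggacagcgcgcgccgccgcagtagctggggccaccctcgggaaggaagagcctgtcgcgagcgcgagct

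Over all 31 genes with a promoter entry, 8 (25.8%) had CACGTG in at least 1 window, namely ATIC, DCK, DHODH, MTHFD1, MTHFD1L, NME1, PAICS and PPAT, where 8.77% of the 27305 genes in the table did. One of the E2F-like words was found in 5 genes (16.1%), namely DCK, DUT, GART, PRPS2 and TYMS, where 2.75% of all genes had one. CCAAT was found in 15 genes (48.4%) against 39.7% of all genes, and TGATGNAA only in MTHFD1L (3.23%) against 4.46%. The GC box GGGCGG, which is not capitalised above, was found in 25 genes (80.6%) against 48.3%. These matches are a description of the letters in the windows, and the genes compared were not matched for base content or number of windows. PPAT and PAICS are counted separately, although a single CACGTG lies in the windows of both. By window, CACGTG was found in 21.3% of the 47 windows of the synthesis genes and in 7.26% of all 35116 windows.

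In de novo purine synthesis, none of the 6 genes was called by edgeR or DESeq2, and 0 had an unadjusted p under 0.05, where 37.5% of all tested genes did. PPAT had 29.5 and 24.4 CPM with sgRNA Ctrl and 21.6 and 24.7 CPM with sgNPM1A. The ranges of the groups overlapped by a small margin, and the log2 fold change was -0.22 (SE 0.11, 95% interval -0.46 to 0.03, adjusted p = 0.184). PPAT was called lower when the library sgRNA Ctrl 2 was left out, at a log2 fold change of -0.35 (adjusted p = 0.0404), and its adjusted p ranged from 0.0132 to 0.684 over the alternatives tried. PAICS, which carries out the middle steps of the ring and shares its start region with PPAT, had 368 and 360 CPM with sgRNA Ctrl and 382 and 386 CPM with sgNPM1A (log2 fold change 0.08). GART, which joins several activities of the pathway in 1 protein, had 161 and 155 against 154 and 173 CPM (log2 fold change 0.05). The log2 fold change was -0.13 for PFAS, which makes the amidine intermediate, 0.12 for ADSL, the lyase used both in the ring and on the way to AMP, and -0.03 for ATIC, which closes the ring. For GART, PAICS, ADSL and ATIC the 95% interval lay within the fold limit.

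The 3 genes that turn IMP into GMP were not called by either tool, again with 0 at an unadjusted p under 0.05. IMPDH1 had 290 and 273 CPM with sgRNA Ctrl and 303 and 314 CPM with sgNPM1A, so that the groups did not overlap, at a log2 fold change of 0.13 (SE 0.07, adjusted p = 0.173). IMPDH2 had 653 and 692 against 699 and 670 CPM, with overlapping groups and a log2 fold change of 0.02. GMPS, the GMP synthetase, had 161 and 155 against 169 and 176 CPM (log2 fold change 0.13). For each of these 3 genes the interval lay within the fold limit. Of the 50-base words of IMPDH2 transcripts, 27.5% also occur in other annotated genes, almost all of them in 1 other gene, so its counts may be split or shared.

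PRPP synthesis and purine salvage held the only synthesis gene called higher. PRPS2, on the X chromosome, had 37.2 and 41.0 CPM with sgRNA Ctrl and 47.5 and 52.4 CPM with sgNPM1A. Both sgNPM1A libraries were above both controls, and the fold was 1.28 (log2 fold change 0.35, SE 0.09, adjusted p = 0.0120). The call was lost without sgRNA Ctrl 1 (log2 fold change 0.28, below the fold limit) and without sgNPM1A 2 (0.28, adjusted p = 0.171), and its adjusted p ranged from 3.86e-07 to 0.171 over the alternatives. It was also lost, at a log2 fold change of 0.31, when counts were scaled by library size alone.

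By the adjusted p alone, 6 of the 35 genes were under 0.05, beside 26.0% of all tested genes, and 3 of these, APRT, CTPS1 and TK1, were under the fold limit. APRT had 228 and 234 CPM with sgRNA Ctrl and 278 and 286 CPM with sgNPM1A. The groups were well apart, and the adjusted p was 0.00615, but the log2 fold change of 0.29 (SE 0.06) was below the fold limit, so APRT was not called. PRPS1, the other PRPP synthetase measured, had 53.5 and 50.2 against 50.4 and 50.4 CPM (log2 fold change -0.04). HPRT1, which salvages hypoxanthine and guanine, had 46.8 and 43.5 against 46.4 and 48.9 CPM (log2 fold change 0.08), and the intervals of both PRPS1 and HPRT1 lay within the fold limit.

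**Figure D3:**
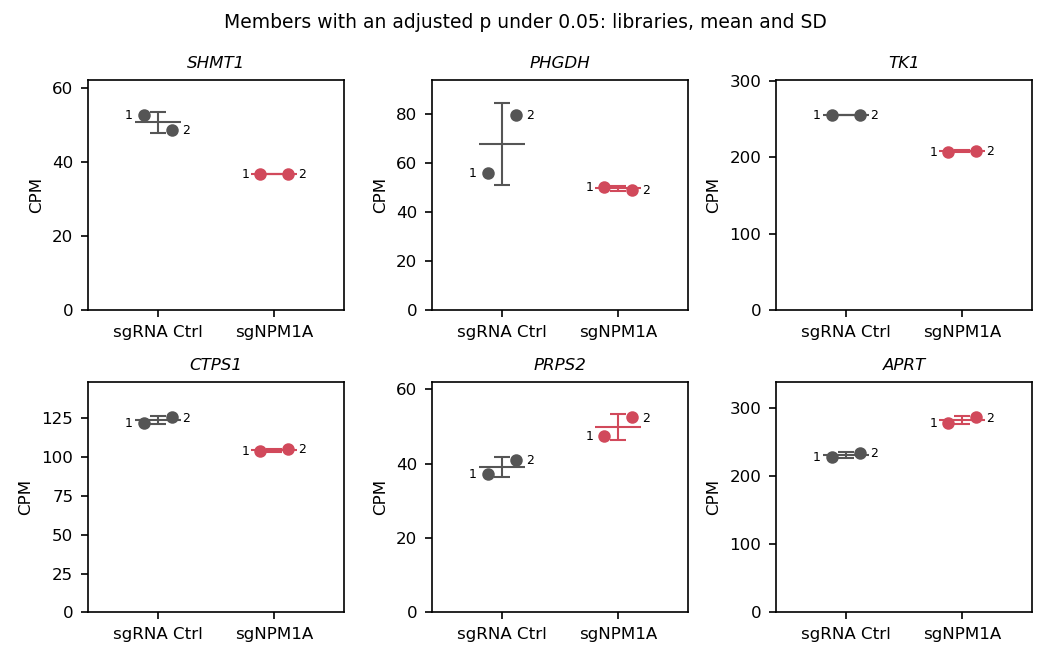
CPM (y axis, linear from 0) of the 6 synthesis genes with an adjusted p under 0.05 in edgeR's quasi-likelihood test, in sgRNA Ctrl (grey) and sgNPM1A (red); numbered points are single libraries, the long bar is the mean and the whiskers are the SD (n = 2). In each panel the groups do not overlap, and in the PHGDH panel the sgRNA Ctrl libraries are far apart, at 56.0 and 79.5 CPM.

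Of the 5 genes of pyrimidine and CTP synthesis none was called by edgeR or DESeq2, and 1, CTPS1, had an unadjusted p under 0.05. CTPS1, the CTP synthetase used by proliferating lymphocytes, had 122 and 126 CPM with sgRNA Ctrl and 104 and 105 CPM with sgNPM1A. The groups did not overlap and the adjusted p was 0.0179, but the log2 fold change of -0.25 (SE 0.07) was below the fold limit. In the same edgeR test with the replicate number as a block, the adjusted p of CTPS1 was 0.0854. CAD, which carries the first steps of the pathway, had 236 and 219 against 201 and 210 CPM (log2 fold change -0.15, adjusted p = 0.141). The log2 fold change was 0.09 for DHODH, the mitochondrial dehydrogenase, -0.04 for UMPS, which makes UMP, and -0.08 for CTPS2. The intervals of CAD, DHODH and UMPS lay within the fold limit.

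Of the 7 genes of deoxynucleotide supply none was called by edgeR or DESeq2, and 3 (TK1, TYMS and RRM2) had an unadjusted p under 0.05, a share of the genes near that of all tested genes (37.5%). TK1, whose mRNA is known to be high in S phase, had 255 CPM in both sgRNA Ctrl libraries and 208 and 209 CPM in the sgNPM1A libraries. Both sgNPM1A libraries were thus lower, with an adjusted p of 0.00511, at a log2 fold change of -0.29 (SE 0.06) that was below the fold limit. Scaled by library size alone, TK1 was called lower at -0.33. TYMS, the thymidylate synthase, had 88.0 and 94.6 against 81.8 and 78.8 CPM (log2 fold change -0.18, adjusted p = 0.0839). RRM2, the S phase subunit of ribonucleotide reductase, had 188 and 172 against 156 and 167 CPM (log2 fold change -0.16, adjusted p = 0.130), and RRM1, the large subunit, had 172 and 166 against 157 and 162 CPM (log2 fold change -0.08).

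In these 4 genes, TK1, TYMS, RRM1 and RRM2, both sgNPM1A libraries were below both controls. Over all 35 genes the libraries of the groups did not overlap in 17, 7 of them higher and 10 lower with sgNPM1A, where 63.1% of all tested genes did not overlap. The other genes of deoxynucleotide supply had overlapping groups. DTYMK, which phosphorylates dTMP, had 103 and 109 against 108 and 104 CPM (log2 fold change 0.00). DUT, which hydrolyses dUTP, had a log2 fold change of 0.02, and DCK, the deoxycytidine kinase that also carries out the first activation step of cytarabine, had 24.2 and 20.4 against 22.8 and 25.2 CPM (log2 fold change 0.10, adjusted p = 0.523). Of the 50-base words of TYMS, 37.6% occur on the opposite strand of other genes, mostly ENOSF1, and for DUT 9.93% do, in DUT-AS1. Whether the counting used strand is not given in the sources used here, so reads from such partners cannot be told apart from those of TYMS and DUT.

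Serine synthesis has 3 steps, of which PHGDH is the first, PSAT1 the second and PSPH the last. PHGDH had 56.0 and 79.5 CPM with sgRNA Ctrl and 50.3 and 48.9 CPM with sgNPM1A. It was called lower, at 0.732 of the control level (log2 fold change -0.45, SE 0.13, adjusted p = 0.0256), with both sgNPM1A libraries below both controls. Much of the difference came from sgRNA Ctrl 2. Without that library the log2 fold change was -0.17 (adjusted p = 0.123) and the call was lost, and without sgRNA Ctrl 1 it was -0.68. Its adjusted p ranged from 1.02e-11 to 0.123 over the alternatives. PSAT1 had 63.3 and 66.2 against 60.6 and 60.3 CPM (log2 fold change -0.10, adjusted p = 0.357) and PSPH had 27.1 and 29.8 against 25.5 and 26.2 CPM (log2 fold change -0.14, adjusted p = 0.296). Neither was called, although the groups did not overlap in either gene.

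Of the 5 folate one-carbon genes, SHMT1 alone was called. SHMT1 moves a carbon from serine to folate in the cytosol, and it had 52.6 and 48.7 CPM with sgRNA Ctrl and 36.8 CPM in both sgNPM1A libraries. The sgNPM1A libraries were thus at 0.727 of the control level, well below both controls (log2 fold change -0.46, SE 0.08, 95% interval -0.64 to -0.28, adjusted p = 0.00151). SHMT1 was called lower under every alternative except a fold limit of 2, with log2 fold changes between -0.51 and -0.40. SHMT2, its mitochondrial counterpart, had 291 and 319 against 316 and 304 CPM, with overlapping groups and a log2 fold change of 0.02 (95% interval -0.13 to 0.17). The intervals of the 2 genes thus did not overlap; the difference between their fold changes was not itself tested. MTHFD2, the mitochondrial dehydrogenase that is high in many cancers, had 110 and 95.9 against 88.4 and 99.1 CPM (log2 fold change -0.13). MTHFD1, the cytosolic enzyme that interconverts one-carbon folates, had a log2 fold change of -0.11, and MTHFD1L, which releases formate in mitochondria, had 0.10.

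The nucleoside diphosphate kinases NME1 and NME2, which balance the triphosphates, were not called by edgeR or DESeq2, with 0 at an unadjusted p under 0.05. NME2 had 4.21 and 3.09 CPM with sgRNA Ctrl and 3.37 and 2.95 CPM with sgNPM1A, with overlapping groups and a log2 fold change of -0.20 (SE 0.20, 95% interval -0.64 to 0.23, adjusted p = 0.50). NME1 had 80.1 and 94.6 against 96.6 and 89.0 CPM (log2 fold change 0.09). Both values are uncertain, since 24.3% of the 50-base words of NME2 and 17.7% of those of NME1 are shared, mostly with the NME1-NME2 readthrough gene, which is listed at 0 counts in every library.

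The other genes of these pathways were taken as 5 lists with 83 genes, of which 74 were tested. Several of them differed by 2-fold or more, which no synthesis gene did. At a limit of 2-fold, CDA, SAMHD1, TYMP, PNP and AK4 were called higher and NT5E lower. Among all 15718 tested genes, 498 were called higher and 502 lower at that limit. Of the 74, 13 were called higher and 6 lower by the study's fold limit, together 25.7%, beside 20.8% of all tested genes. Their median log2 fold change was 0.01, and they ranged from -1.21 to 2.01. Without the library sgNPM1A 2 fewer of these genes were called in each direction, and so were fewer of all tested genes. Untested for low counts were AMPD1, GDA, XDH, DPYS, ALDH1L1, GLDC, FOLR1, FOLR2 and SLC28A3.

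**Figure D4:**
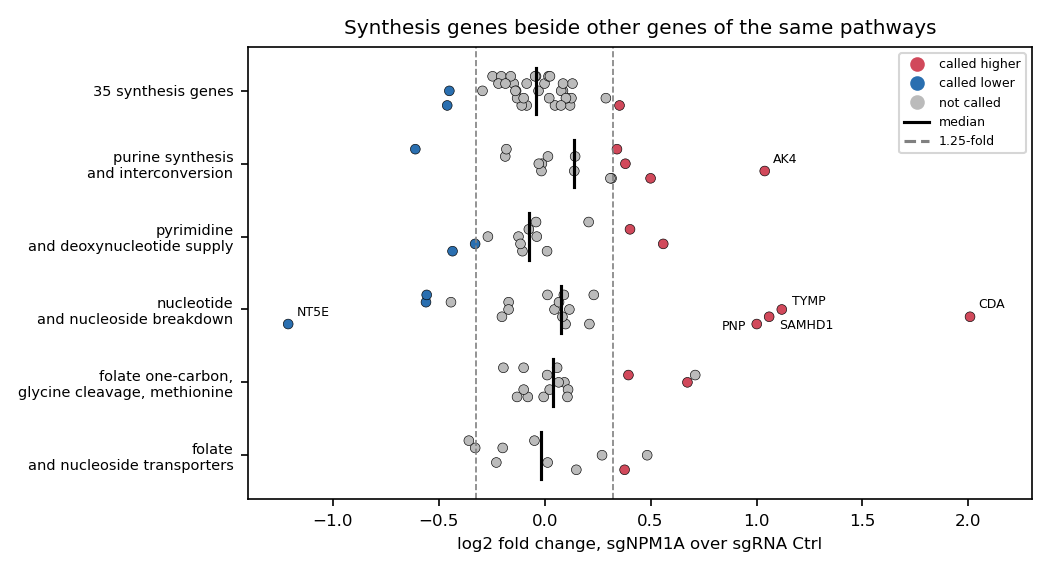
Fold changes (log2 scale, x axis), sgNPM1A over sgRNA Ctrl with n = 2 libraries per group, of the 35 synthesis genes and of the tested genes of 5 lists of the same pathways (y axis); each point is a gene, black bars are medians, dashed lines mark the fold limit, and red and blue mark genes called higher and lower. The synthesis genes lie between -0.46 and 0.35, whereas CDA reaches 2.01 and NT5E -1.21 in the breakdown list.

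Among the 5 lists, breakdown of nucleotides and nucleosides had the largest rise and the largest fall, with 4 genes higher and 3 lower of 20 tested (35%) and a median of 0.08. CDA, the cytidine deaminase, which also inactivates cytarabine, had 19.2 and 20.9 CPM with sgRNA Ctrl and 81.8 and 79.1 CPM with sgNPM1A. This was a 4.02-fold rise (log2 fold change 2.01, SE 0.08, adjusted p = 6.04e-08). PNP, the purine nucleoside phosphorylase, rose from 79.3 and 76.0 to 151 and 160 CPM (log2 fold change 1.00, SE 0.07, adjusted p = 1.85e-06). The other genes that rose were TYMP, the thymidine phosphorylase, with 78.5 and 72.1 against 154 and 173 CPM (log2 fold change 1.12), and SAMHD1, which hydrolyses dNTPs and the triphosphate of cytarabine, with 147 and 127 against 268 and 303 CPM (log2 fold change 1.06). In these 4 genes the lowest sgNPM1A library was above the highest control by a wide margin, and each was called under all alternatives with this fold limit.

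In the same list NT5E, the surface nucleotidase CD73, fell from 26.7 and 23.6 to 10.5 and 11.2 CPM (log2 fold change -1.21, SE 0.11, adjusted p = 1.18e-05). UPP1, the uridine phosphorylase, had 3.86 and 4.71 against 2.69 and 3.13 CPM (log2 fold change -0.56, adjusted p = 0.0473), and this call was lost without sgRNA Ctrl 2 (-0.40), sgNPM1A 1 (-0.45) or sgNPM1A 2 (-0.67) and with 3 of the other methods (adjusted p from 0.00773 to 0.260 over the alternatives). The cytosolic nucleotidase NT5C2 (log2 fold change 0.12) and the adenosine deaminase ADA (0.10) were not called. Of the 50-base words of TYMP 12.7% are shared with other genes, and of those of SAMHD1 9.19% lie opposite to other genes.

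Some markers of cell type also differed between the groups. Of the 7 myeloid markers 4 were called higher (SPI1, MPO, CSF3R and LYZ) and 0 lower, and their summed level, here scaled by library size alone, was 1340 to 1368 CPM with sgRNA Ctrl and 4023 to 4735 CPM with sgNPM1A. Most of this increase was in LYZ, with 218 to 274 CPM against 2605 to 3314 CPM, and the other 6 markers summed to 1094 to 1122 CPM against 1418 to 1420 CPM, with PTPRC, CD33 and CEBPA not called. Of the 14 measured markers of other cell types, 6 (CD3E, CD3D, MS4A1, HBB, EPCAM and CDH5) were at 0 in all libraries, 3 were above 1 CPM in all libraries, and 2 (KRT18 and COL1A2) were called lower. Their sum was 35.2 to 37.4 CPM with sgRNA Ctrl and 13.9 to 17.5 CPM with sgNPM1A. The part of the myeloid markers' increase in the values of the breakdown genes was not tested.

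**Figure D5:**
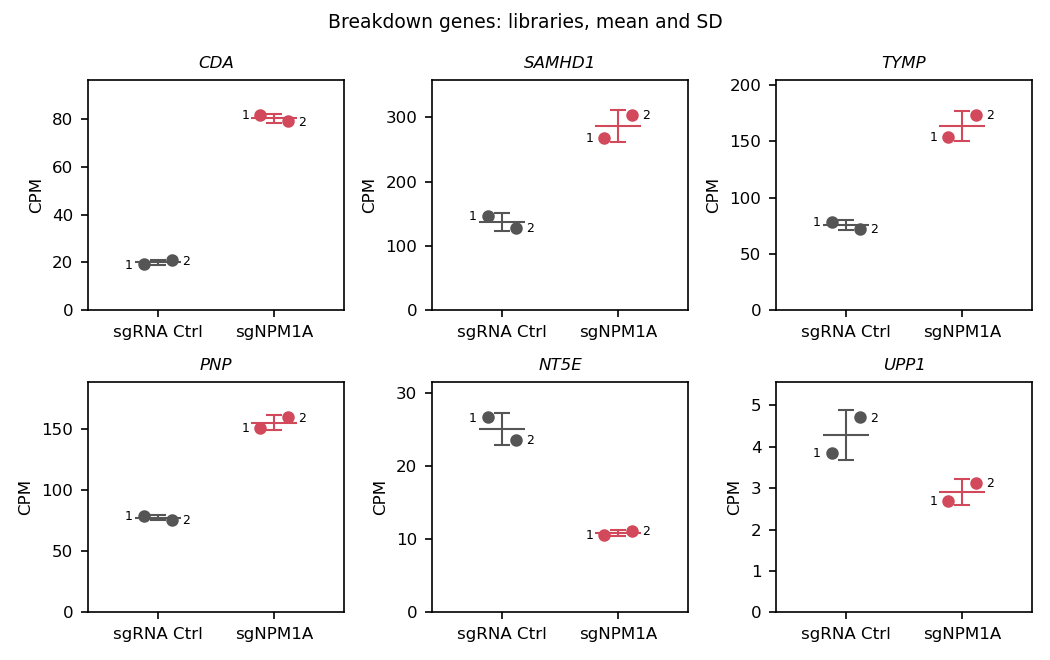
CPM (y axis, linear from 0) of 6 called genes of nucleotide and nucleoside breakdown in sgRNA Ctrl (grey) and sgNPM1A (red); numbered points are single libraries, the long bar is the mean and the whiskers are the SD (n = 2). CDA, SAMHD1, TYMP and PNP are higher in both sgNPM1A libraries, and NT5E and UPP1 are lower in both.

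In purine interconversion 4 genes were higher and 1 was lower of 15 tested (33.3%), with a median of 0.14. AK4, a mitochondrial adenylate kinase, had 15.3 and 9.85 CPM with sgRNA Ctrl and 25.7 and 25.9 CPM with sgNPM1A (log2 fold change 1.04, SE 0.16, adjusted p = 0.000603), and 15.1% of its 50-base words are shared with other genes, mostly the pseudogene AK4P3. ADK, the adenosine kinase, rose from 52.3 and 57.5 to 77.9 and 77.3 CPM (log2 fold change 0.50, SE 0.08, adjusted p = 0.000645). AMPD3, which deaminates AMP, fell from 8.30 and 7.57 to 4.84 and 5.55 CPM (log2 fold change -0.61, SE 0.14, adjusted p = 0.00954), a call that was lost without sgNPM1A 1 (-0.52, adjusted p from 4.66e-05 to 0.0816 over the alternatives). The other genes called higher were AK6 (log2 fold change 0.38), which shares 22.2% of its words, mostly with TAF9, and PRPSAP2 (0.34), which encodes a partner protein of the PRPP synthetases. The call of AK6 was lost without sgNPM1A 1 (0.36) or sgNPM1A 2 (0.41), with adjusted p from 0.000121 to 0.124 over the alternatives. That of PRPSAP2 was lost without sgRNA Ctrl 2 (0.27) or sgNPM1A 2 (0.26), with DESeq2 and when scaled by library size alone, with adjusted p from 0.000136 to 0.283. The second partner protein, PRPSAP1, had 39.1 and 36.7 against 37.6 and 39.0 CPM (log2 fold change 0.02).

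In pyrimidine and deoxynucleotide supply 2 genes were higher and 2 lower of 13 tested (30.8%), with a median of -0.07. RRM2B, the ribonucleotide reductase subunit induced by p53, had 29.1 and 23.5 against 32 and 37.4 CPM (log2 fold change 0.40, SE 0.12, adjusted p = 0.0244), and CMPK2, a mitochondrial nucleotide kinase, had 4.96 and 4.75 against 6.10 and 8.21 CPM (0.56, SE 0.17, adjusted p = 0.0320). RRM2B lost its call without sgRNA Ctrl 2 (0.26) or sgNPM1A 2 (0.29), with adjusted p from 1.47e-07 to 0.185 over the alternatives. CMPK2 lost it with DESeq2 and without sgRNA Ctrl 1 (0.59), sgRNA Ctrl 2 (0.53) or sgNPM1A 2 (0.33), with adjusted p from 0.000493 to 0.382. The nucleoside diphosphate kinases NME3 and NME4 were lower, NME3 with 76.9 and 90.2 against 62.7 and 61.0 CPM (log2 fold change -0.43, adjusted p = 0.00335) and NME4 with 360 and 381 against 305 and 285 CPM (-0.33, adjusted p = 0.00463). Without sgRNA Ctrl 2 both fell under the fold limit, at -0.31 for NME3 and -0.28 for NME4, and NME4 was also not called without sgNPM1A 2 (-0.28, adjusted p from 3.85e-11 to 0.127 over the alternatives).

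Of 16 tested genes of the folate, glycine cleavage and methionine pathways 2 were called higher and 0 lower (12.5%), with a median of 0.04. One of them was MTHFD2L, a relative of MTHFD2, with 2.99 and 3.36 against 4.81 and 5.33 CPM (log2 fold change 0.67, SE 0.17, adjusted p = 0.0127), a call that was lost with DESeq2 and without sgRNA Ctrl 1 (0.59) or sgNPM1A 2 (0.60), with adjusted p from 0.000461 to 0.0975 over the alternatives. Of 10 tested transporters of folates and nucleosides 1 was called higher and 0 lower (10.0%), with a median of -0.02. This was SLC25A36, a mitochondrial pyrimidine nucleotide carrier, with 27.4 and 27.2 against 33.6 and 37.3 CPM (log2 fold change 0.38, SE 0.09, adjusted p = 0.00911), which was not called without sgNPM1A 2 (0.30, adjusted p from 9.14e-07 to 0.157 over the alternatives). SLC29A1, the nucleoside transporter through which cytarabine enters cells, had 129 and 122 against 125 and 129 CPM (log2 fold change 0.01), and SLC19A1, the reduced folate carrier, had 111 and 95.9 against 88.0 and 88.9 CPM (-0.23, adjusted p = 0.0597).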

How the data were processed

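Gene expression was measured by RNA-Seq in 4 libraries of OCI-AML3 cells, 2 with sgRNA Ctrl and 2 with sgNPM1A, grouped by their labels. The authors aligned the reads to hg38 (STAR, Samtools) and deposited unnormalized counts for each Ensembl gene; the counting program, annotation release and use of strand are not given in the sources used here. The medium is alpha-MEM in the labels and RPMI in the study's methods, and 0 rows carry an ERCC name.

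From these counts, edgeR 4.0.16 in R 4.3.3 was run on the whole table (filterByExpr with a minimum count of 10, TMM factors, robust quasi-likelihood F test, two-sided, Benjamini-Hochberg over 15718 genes, called below an adjusted p of 0.05 with a log2 fold change of at least 0.32 in size). Log2 fold changes, SE and 95% intervals are from this fit, and CPM are TMM-normalized. Lengths and shared 50-base words are from GENCODE transcripts (the release lifted to GRCh37), and positions and promoters are from RefSeq on GRCh38.p14. The alternatives were DESeq2 1.42.0, limma-trend (limma 3.58.1) on quantile-normalized log2 CPM, RLE, upper-quartile and library-size scaling, other filters, other fold limits, a replicate block and leaving out each library.

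The rule for the members uses symbols and no measured value, but the members and lists were chosen with earlier results of these data known. Values in every library are given for each called member and, in a role group without one, for the member with the smallest adjusted p, and in each list of other pathway genes the 2 called genes with the smallest adjusted p per direction are named. TYMP, SAMHD1, UPP1, AK6, PRPSAP2 and the uncalled genes of these lists were named after their values were seen, as were further library values of members. Some genes of these lists are counted but not reported by name here.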

Additional observations from a re-analysis of the deposited data

How the results depend on the processing

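With 2 libraries per group, a fit without one of them assumes that the lone library varies like the other group. The call of SHMT1 held under all alternatives with the study's fold limit. In leave-one-out fits, 0 to 1 synthesis genes were called higher (0 without sgRNA Ctrl 1 and without sgNPM1A 2) and 2 were called lower each time, with PPAT in place of PHGDH when sgRNA Ctrl 2 was left out. In each of these fits fewer of the other pathway genes, and fewer of all tested genes, were called higher than in the full fit. Scaled by library size alone, 0 synthesis genes were higher and 3 lower, and the median of the 35 was -0.0814 beside -0.04 for all genes. Without a fold limit 2 were higher and 4 lower. At a limit of 2-fold, 0 synthesis genes were called in either direction, with 5 higher and 1 lower among the other pathway genes and 498 and 502 among all genes. NPM1 had a log2 fold change of -0.42 with limma-trend, where it was called lower (adjusted p = 0.00108), and its adjusted p ranged from 1.19e-05 to 0.440 over the alternatives; the cause was not tested. DESeq2 called 1267 genes higher and 1242 lower, with the same counts of synthesis genes. Among synthesis genes not called, 8 had the other sign without sgRNA Ctrl 1.

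Same-numbered libraries share only a number, and across genes the deviations of these pairs had a correlation of -0.130, and of -0.523 over genes with a mean above 10 CPM. With the replicate number as a block, 1 synthesis gene was higher and 2 lower, 12 and 6 other pathway genes, and 1637 and 1604 of all genes, and PRPSAP2 lost its call (adjusted p = 0.0553, range over the alternatives 0.000136 to 0.283). A crossed replicate block, chosen after this correlation was seen, gave 1 and 2, 13 and 7, and 1955 and 1918. NME2, with 80 to 107 counts in a library, had the fewest counts of the members. Whether depth or the words it shares with the NME1-NME2 readthrough gene limit its value most was not tested.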

Other observations

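Of 8 regulators of growth and nucleotide genes that were also measured 1 was called (12.5%), beside 20.8% of all tested genes. This was E2F1, a transcription factor of S phase genes. It had 89.0 and 95 CPM with sgRNA Ctrl and 77.1 and 69.9 CPM with sgNPM1A (edgeR log2 fold change -0.32, SE 0.08, adjusted p = 0.0101), close to the fold limit, and the call was lost without sgRNA Ctrl 2 or sgNPM1A 2, with limma-trend and with a filter of 10 counts in every library. MYC had 410 and 403 against 352 and 332 CPM (log2 fold change -0.25, SE 0.07, adjusted p = 0.0159), below the limit. ATF4, a regulator of serine synthesis genes, had 500 and 623 against 573 and 504 CPM, with overlapping groups (log2 fold change -0.06). The other regulators were MAX (-0.07), TFDP1 (-0.06), RB1 (-0.30), NRF1 (-0.12) and MTOR (-0.05), none of them called, although RB1 was called lower without sgRNA Ctrl 2.

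Of 7 S phase reference genes, the MCM helicase genes MCM2 to MCM7 and PCNA, 0 were called by edgeR or DESeq2, where edgeR called 20.8% of all tested genes, and 3 had an unadjusted p under 0.05, beside 37.5% of all tested genes. MCM5 had 319 and 302 against 253 and 265 CPM (log2 fold change -0.26, adjusted p = 0.0136) and MCM7 had 716 and 657 against 556 and 588 CPM (-0.26, adjusted p = 0.0193), both below the fold limit. With limma-trend and without sgRNA Ctrl 2, MCM7 was called lower. PCNA had 259 and 274 against 265 and 273 CPM (log2 fold change 0.01).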
